A study of Homo sapiens with 6 samples.

Results

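The 10 genes described here handle zinc. Their mRNA was measured in the lung adenocarcinoma line A549, of human origin, with and without exposure to Japoflavone B. They are the metallothionein genes MT1E, MT1F, MT1X and MT2A, the metal-sensing transcription factor gene MTF1, the zinc exporter genes SLC30A1 and SLC30A5, and the zinc importer genes SLC39A6, SLC39A10 and SLC39A14. They were chosen by name from the gene symbols of the deposited table, where each symbol matched 1 of 61806 genes. All 10 had counts, and 9 of them passed the filter on low counts that left 16082 genes for the test; MT1E did not pass. Every library comes from A549 cells labelled wild type (WT), seeded for 24 h and then kept for 24 h either with DMSO (3 libraries) or with Japoflavone B at a dose of 40 whose unit the labels do not state (3 libraries, titled LE-532). The title of the series calls the compound a PARP1 inhibitor and links it to p38, p53 and pyroptosis. Zinc is not among the questions it names.

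Metallothioneins are small cysteine-rich proteins that bind zinc, copper and cadmium in the cytosol. Free zinc activates MTF1, which binds metal response elements in the promoters of metallothionein genes and of SLC30A1, so that the mRNA of these genes is widely read as a sign of cytosolic zinc. SLC30 proteins (ZnT) move zinc out of the cytosol, across the plasma membrane or into organelles, and SLC39 proteins (ZIP) move it into the cytosol. MTF1 is also known to repress SLC39A10 when zinc is high.

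The promoters of the metallothionein genes with the most counts and of SLC30A1 are shown because MTF1 is known to act through them. The 250 bases before the start of each gene were taken from RefSeq promoters (GRCh38.p14). Of the 10 genes 7 were matched there. MT1E and MT1F were not matched, and SLC39A14 was left out of the search. Each is written 5′ to 3′ on the strand of its gene, and capitals mark every match to the core of the metal response element, searched as TGCACNC and TGCGCNC on both strands. No match overlapped another. MT2A lies at chr16:56608334-56608583 on the plus strand, MT1X at chr16:56682220-56682469 on the plus strand and SLC30A1 at chr1:211579162-211579411 on the minus strand.
MT2A: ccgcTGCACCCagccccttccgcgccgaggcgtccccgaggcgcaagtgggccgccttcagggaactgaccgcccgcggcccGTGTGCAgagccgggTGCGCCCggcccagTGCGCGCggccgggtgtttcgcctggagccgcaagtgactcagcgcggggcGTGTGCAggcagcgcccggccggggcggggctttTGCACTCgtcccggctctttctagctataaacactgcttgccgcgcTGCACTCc
MT1X: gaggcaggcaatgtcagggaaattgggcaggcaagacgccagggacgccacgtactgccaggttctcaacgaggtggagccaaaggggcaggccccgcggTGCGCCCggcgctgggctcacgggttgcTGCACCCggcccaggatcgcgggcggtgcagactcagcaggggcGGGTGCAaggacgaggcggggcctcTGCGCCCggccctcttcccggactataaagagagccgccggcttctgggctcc
SLC30A1: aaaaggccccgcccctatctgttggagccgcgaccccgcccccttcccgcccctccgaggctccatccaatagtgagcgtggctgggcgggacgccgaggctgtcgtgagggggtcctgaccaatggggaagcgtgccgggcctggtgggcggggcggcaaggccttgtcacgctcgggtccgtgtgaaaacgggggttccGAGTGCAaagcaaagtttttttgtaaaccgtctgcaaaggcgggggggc

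MT2A had 7 matches in this window, 5 on its own strand and 2 on the opposite one, and MT1X had 4. SLC30A1 had 1 match, 49 to 43 bases before its start, and SLC39A6 had 1. MTF1, SLC30A5 and SLC39A10 (in both of the windows listed for it) had none. Of 35116 promoters in the table, 24.8% held at least 1 match, 0.37% held at least 4 and 11 held at least 7. A match is a string of letters and not a site shown to be bound.

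The libraries held 15298531 to 21744407 gene counts. The mRNA of most genes differed after Japoflavone B: of 16082 tested, 70.0% passed the edgeR quasi-likelihood test at an adjusted p of 0.05, 34.7% higher and 35.4% lower, with a median log2 fold change of -0.0038. Mitochondrial genes took 3.97 to 4.70% of counts after DMSO and 8.33 to 8.58% after Japoflavone B. Of 6 epithelial markers 5 reached a mean of 1 FPKM (fragments per kilobase of exons, scaled to library totals) in a group. Their summed FPKM was 689 to 771 after DMSO and 219 to 232 after Japoflavone B: 4 of the 6 were called lower (KRT18 3.32-fold, KRT8 2.85-fold, CDH1 3.60-fold and KRT19 1.48-fold) and EPCAM did not pass. Among markers of other cells CD3E, VWF and KDR had 0 counts and PTPRC had at most 1 per library. The summed FPKM of 5 leukocyte markers was 2.12 to 3.05 after DMSO and 0.41 to 0.64 after Japoflavone B, of which CD14 was 2.07 to 3.02 and 0.15 to 0.40, and that of 5 fibroblast markers was 4.70 to 5.21 and 0.53 to 0.76, of which COL1A1 was 4.35 to 4.94 and 0.43 to 0.54; of 4 endothelial markers it was 0.02 to 0.07 and at most 0.03. The part of these markers in the results below was not tested. Whether the 3 libraries of a group are separate cultures is not in the labels, and all p-values here rest on the spread between these libraries, which may be technical.

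Of the 9 genes tested, 6 rose after Japoflavone B, 1 fell and 2 did not pass, against 34.7% and 35.4% of all genes tested in those directions, and the median log2 fold change was 0.39. SLC39A14 and SLC30A1 rose 3.28-fold and 2.99-fold, MTF1 and MT1X rose 2.15-fold and 2.11-fold, MT2A and SLC39A6 rose 1.31-fold and 1.23-fold, and SLC39A10 fell to a level 2.12-fold lower. A rise of 2-fold or more was seen in 4 of them and in 9.67% of all genes tested; 1 fell by as much, as did 2419 of the 16082. The FPKM of the groups did not overlap in 8 of the 9, against 71.6% of all genes tested. In an exact two-sided permutation test of log2 CPM (counts scaled to library totals and trimmed-mean factors), p was 0.1 for the 7 genes past the threshold, which is the smallest p that 3 against 3 libraries allows. In the text below FPKM are scaled by library totals, while fold changes also use trimmed-mean factors, which raises a log2 fold change by 0.10 at the median gene.

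**Figure D1:**
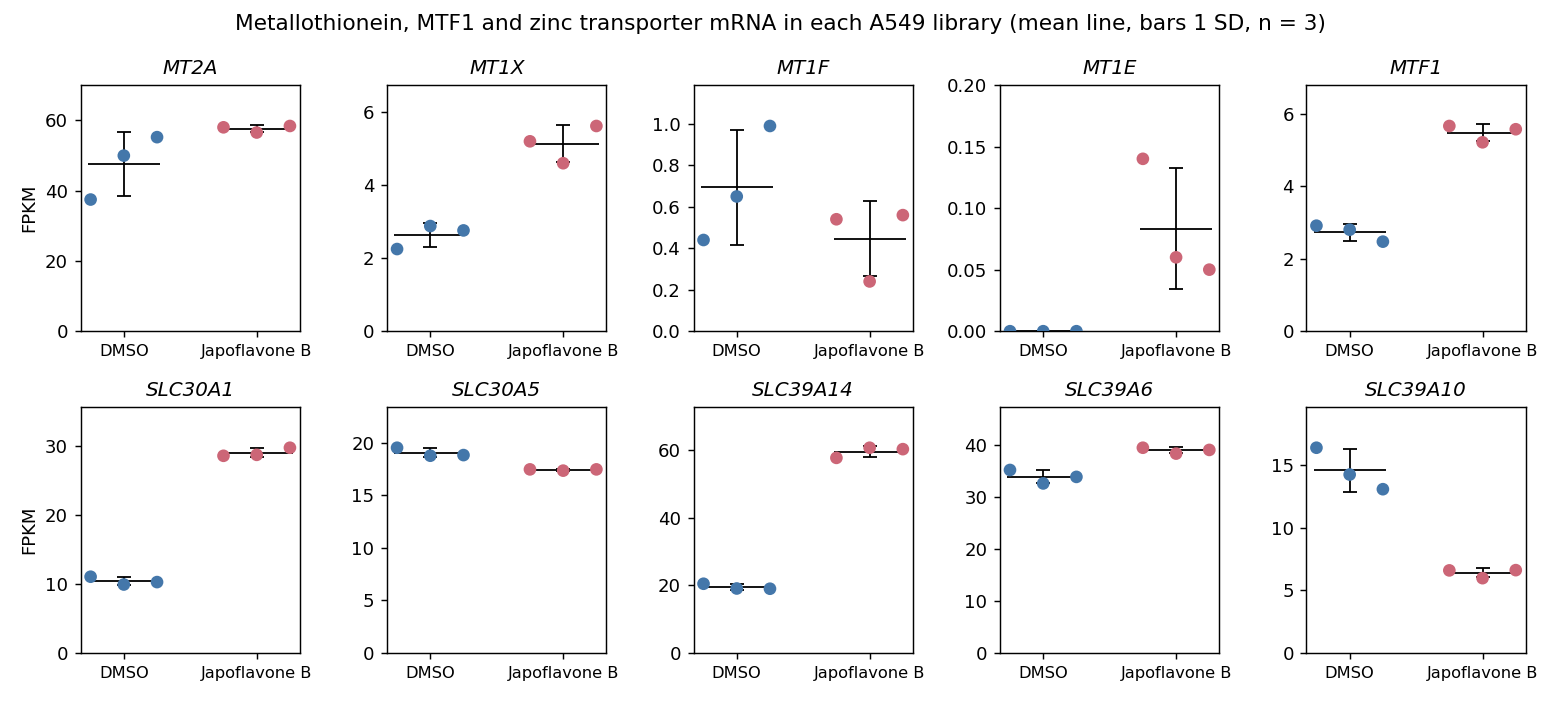
FPKM of the 10 genes in each library (points; DMSO in blue, Japoflavone B in red), with the mean (line) and 1 SD (bars) of the 3 libraries of a group; each panel has its own linear axis from 0. SLC39A14, SLC30A1, MTF1 and MT1X stand clear of their DMSO values, MT2A only just does, and SLC39A10 is lower in all 3 treated libraries.

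MT2A (ENSG00000125148, chromosome 16, 56608584 to 56609497, GRCh38) is the metallothionein gene with most mRNA in these cells. It had 37.46, 49.96 and 55.21 FPKM in DMSO replicates 1 to 3 and 58.01, 56.53 and 58.39 FPKM in Japoflavone B replicates 1 to 3. The treated libraries lay close together, and the lowest of them was just above the highest DMSO library. The log2 fold change was 0.39 ± 0.09 (SE; edgeR adjusted p = 4.86e-04). Much of the difference rested on DMSO replicate 1: without that library the log2 fold change was 0.24, which still passed (adjusted p = 0.0017). The call was lost in each of 3 fits of limma on log2 FPKM or TPM (FPKM rescaled to the same sum in each library), where the adjusted p was 0.055, 0.0588 and 0.192.

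The spread of MT2A between the DMSO libraries was wide, although the genes it was compared with were not matched to it in depth. On this CPM scale its coefficient of variation was 19.4% over the 3 DMSO libraries, larger than that of 97.5% of the 11142 genes with a mean of at least 100 DMSO counts, whose median was 6.4%. Over the treated libraries it was 1.03%, where the median of 10653 genes was 4.81%. These are spreads over 3 libraries each, and their difference was not tested. At 813 to 1051 counts per treated library, counting error alone is expected to give a spread above 1.03%. SLC39A10 also varied more than most genes after DMSO, with 11.3% (above 82% of genes). Its order was opposite: DMSO replicate 1 was the lowest library for MT2A and the highest for SLC39A10, and DMSO replicate 3 the reverse. Other genes showed these orders too. In DMSO replicates 1 to 3 MTF1 had 2.91, 2.80 and 2.47 FPKM, and KRT8 had 234, 266 and 271 FPKM. A link between MT2A and SLC39A10 was not tested.

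MT1X (ENSG00000187193, chromosome 16, 56682470 to 56684196) encodes another metallothionein of the same cluster. Its FPKM were 2.25, 2.88 and 2.76 after DMSO and 5.20, 4.60 and 5.62 after Japoflavone B, from 73 to 108 and 125 to 179 counts per library. The groups did not overlap. The log2 fold change of 1.07 ± 0.16 (SE; edgeR adjusted p = 7.84e-07) kept its call in all 18 alternatives run, between 0.76 and 1.15.

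MT1F (ENSG00000198417, chromosome 16, 56657731 to 56660698) and MT1E (ENSG00000169715, chromosome 16, 56625475 to 56627112) had few counts. MT1F had 17, 26 and 28 counts after DMSO and 20, 7 and 19 after Japoflavone B, with overlapping FPKM of 0.44 to 0.99 and 0.24 to 0.56, and its log2 fold change of -0.47 ± 0.39 did not pass (edgeR adjusted p = 0.297). MT1E had 0 counts in each DMSO library, which allows up to 0.138 to 0.196 CPM by the totals of these libraries, and 3, 1 and 1 counts after Japoflavone B. All 6 values are at or under a floor of 3 counts per library, so no fold change is given.

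Across the metallothionein cluster of chromosome 16 the counts came almost wholly from MT2A and MT1X. Of 16 metallothionein genes and pseudogenes listed there, 9 had 0 counts in every library, among them MT1G, MT1H, MT1M, MT1B and MT4. MT1A, the one other metallothionein that could be tested, had 20, 25 and 15 counts after DMSO and 18, 5 and 10 after Japoflavone B, a log2 fold change of -0.67 ± 0.41 that did not pass (edgeR adjusted p = 0.149); limma called it lower on log2(FPKM + 0.1), log2(FPKM + 1) and log2(TPM + 1), at -0.88, -0.58 and -0.89 log2. The pseudogene MT1DP had 21 counts in the DMSO libraries together and 4 in the treated ones, and MT3 had 1 count in all. On chromosomes other than 16, MT1P1, MT1P3, MT1XP1 and MT1HL1, pseudogenes or copies without introns, had 2, 2, 6 and 0 counts in the DMSO libraries together and 6, 5, 12 and 1 in the treated ones. MT1H, with 0 counts in every library, had 8 matches to the metal response element in its promoter window, more than MT2A, and MT1B and MT4 had 3 each. Of the 16 metallothioneins listed outside the set of 10, only these 3 had a promoter window. The number of matches thus did not order the metallothioneins with a window by mRNA level.

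**Figure D2:**
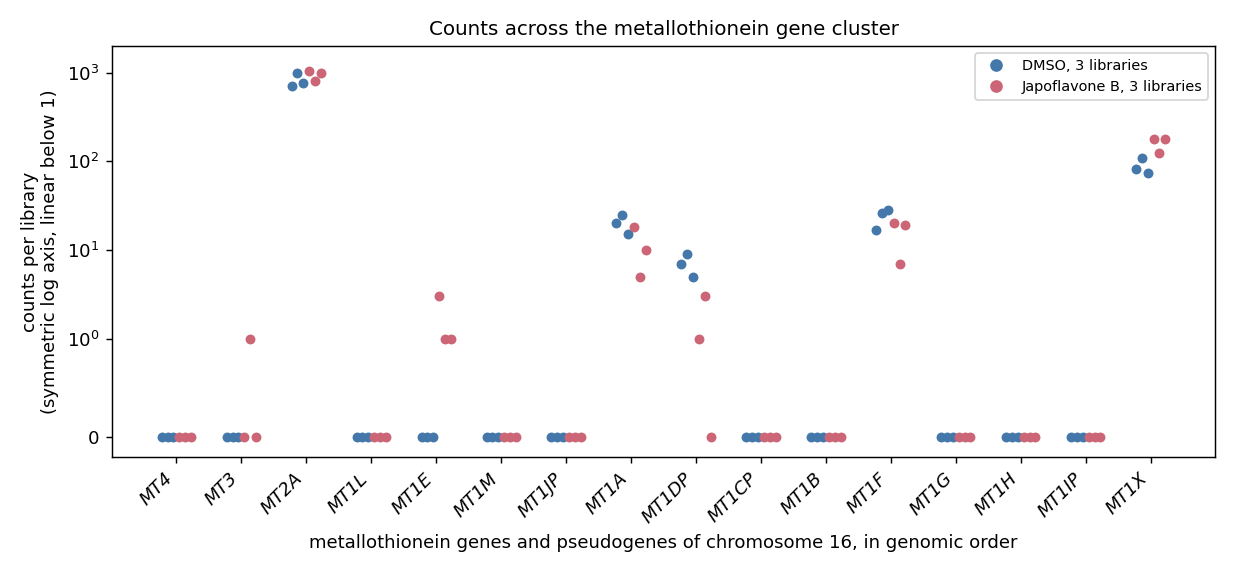
Counts per library of the 16 metallothionein genes and pseudogenes of chromosome 16, in genomic order, on a symmetric log axis that is linear below 1 (blue, 3 DMSO libraries; red, 3 Japoflavone B libraries). MT2A and MT1X hold nearly all counts, MT1A, MT1F and MT1DP hold at most 28 per library, and 9 genes are at 0 throughout.

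Summed over the 11 metallothionein genes and pseudogenes with any count, the level was 50.8 ± 9.39 CPM by library totals in the DMSO libraries and 63.6 ± 2.19 in the treated ones (SD, n = 3), a ratio of 1.25, or 1.34 with trimmed-mean factors. This sum does not depend on how counted reads are divided among these 11. It leaves out reads counted for MT2P1, which shares sequence with MT2A and MT1E. In these bulk libraries a change in the level per cell and a change in the share of cells that express a gene cannot be told apart. MT2A made up 84.9 to 86.4% of it in the DMSO libraries and 81.9 to 84.6% in the treated ones, and MT1X 8.17 to 9.64% and 13.0 to 14.9%. The share of MT1X was higher in all 3 treated libraries than in any DMSO library.

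Metallothioneins resemble each other, and part of their reads may not be assigned to 1 gene. In GENCODE 29 transcripts 4.24% of the 50-base windows of MT2A coding transcripts, 3.27% of MT1F and 7.1% of MT1E also occurred in other genes. For MT1X the share was 43.6%, mostly from an unnamed gene (ENSG00000259827) that lies across MT1X on the same strand and had 0 counts; without that gene it was 8.28%. How the authors' counting treated such reads is not given in the sources used here. None of the windows of SLC30A1, SLC39A6 or SLC39A10 was shared, and under 1% of those of MTF1, SLC30A5 and SLC39A14. In the deposited annotation, however, SLC39A6 shares 1295 bases with an unnamed gene on the same strand (ENSG00000288917). That gene had 22 counts in the DMSO libraries together and 6 in the treated ones. On the strand opposite SLC39A10 lie AHCYP5 (1238 bases, 0 counts) and RNU6-915P (103 bases, 4 and 2 counts).

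The deposited FPKM also understate MT1X. The exonic size used for it, 1727 bases, equals the whole span of the gene with its introns, 3.21 times its longest coding transcript of 538 bases in GENCODE 29. Per length of that transcript MT1X had 8.44 ± 1.07 FPKM in DMSO libraries and 16.5 ± 1.65 in treated ones (SD, n = 3), in place of the deposited 2.63 ± 0.335 and 5.14 ± 0.513 FPKM. The size was also 2.68 times the longest coding transcript for MT1F, 1.49 times for SLC39A14 and 1.44 times for MT1E. In the rest of the set it ran from 1.00 times for MTF1 to 1.27 times for SLC39A10. For MT2A the size of 914 bases is 1.16 times the longest coding transcript, and fold changes do not depend on length.

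MTF1 (ENSG00000188786, chromosome 1, 37809574 to 37859592) encodes the factor that senses zinc for the metallothionein promoters. It had 2.91, 2.80 and 2.47 FPKM after DMSO and 5.66, 5.21 and 5.57 FPKM after Japoflavone B. All 3 treated libraries were well above the DMSO libraries, with a log2 fold change of 1.10 ± 0.08 (SE; edgeR adjusted p = 1.09e-12).

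SLC30A1 (ENSG00000170385, chromosome 1, 211571568 to 211579161) encodes ZnT1, the exporter of the plasma membrane and a known MTF1 target. Its FPKM were 11.06, 9.93 and 10.28 after DMSO and 28.60, 28.74 and 29.77 after Japoflavone B. The libraries of a group differed little beside the gap between the groups, and the log2 fold change was 1.58 ± 0.06 (SE; edgeR adjusted p = 2.75e-19).

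SLC30A5 (ENSG00000145740, chromosome 5, 69093991 to 69131069) encodes ZnT5, which loads zinc into the secretory pathway together with ZnT6, the product of SLC30A6. It had 19.53, 18.77 and 18.83 FPKM after DMSO and 17.47, 17.35 and 17.47 FPKM after Japoflavone B. In FPKM the treated libraries were all slightly lower, but with trimmed-mean factors the groups overlapped and the log2 fold change was -0.03 ± 0.05 (SE; edgeR adjusted p = 0.688). With library totals as the scaling it was called lower, at -0.13 (adjusted p = 0.0367), and the 3 limma fits also called it lower, so the call follows the scaling. SLC30A5 shares 17961 bases with an unnamed gene on the opposite strand (ENSG00000248664) that had 18 counts in all 3 DMSO libraries and 50 in the treated ones; reads of the 2 cannot be told apart if strand was not used.

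Among the other SLC30 genes, 3 of the 5 tested rose and none fell, where 34.7% of all genes tested rose and 35.4% fell. The other 2, SLC30A3 and SLC30A9, did not pass, although SLC30A9 was called lower on log2(TPM + 1). Those that rose were SLC30A4, which encodes a transporter of endosomal vesicles (0.74 ± 0.11 log2; edgeR adjusted p = 1.82e-06), SLC30A7, the gene of a Golgi transporter (0.50 ± 0.08 log2), and SLC30A6, the partner of SLC30A5 (0.37 ± 0.06 log2). SLC30A6 went from 17.2 ± 0.207 to 20.8 ± 1.49 FPKM (SD, n = 3), so that this partner gene rose while SLC30A5 did not; the difference between the genes was not tested. SLC30A2 and SLC30A8 had 0 counts and SLC30A10 had 2 in all.

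SLC39A14 (ENSG00000104635, chromosome 8, 22367278 to 22434129) encodes ZIP14, an importer of zinc, iron and manganese that is known to respond to inflammation and to stress of the endoplasmic reticulum. Its FPKM were 20.44, 19.04 and 18.97 after DMSO and 57.62, 60.61 and 60.19 after Japoflavone B. The log2 fold change of 1.71 ± 0.05 (SE; edgeR adjusted p = 5.32e-21) was the largest of the 9 genes tested.

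SLC39A10 (ENSG00000196950, chromosome 2, 195575977 to 195737702) encodes ZIP10, an importer of the plasma membrane. It had 16.38, 14.24 and 13.07 FPKM after DMSO and 6.59, 5.97 and 6.61 FPKM after Japoflavone B. Every treated library was lower than every DMSO library, and the log2 fold change was -1.09 ± 0.07 (SE; edgeR adjusted p = 1.62e-13).

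SLC39A6 (ENSG00000141424, chromosome 18, 36108531 to 36129385) encodes ZIP6, also known as LIV-1, which is related to ZIP10 and forms a complex with it. It had 35.21, 32.62 and 33.88 FPKM after DMSO and 39.49, 38.36 and 39.07 FPKM after Japoflavone B. The groups did not overlap, and the log2 fold change was 0.30 ± 0.05 (SE; edgeR adjusted p = 1.44e-05); on log2(TPM + 1) it was 0.09 and did not pass (limma adjusted p = 0.103). The genes of the ZIP6 and ZIP10 complex thus went in opposite directions under the reported scaling.

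Of the 8 other SLC39 genes tested, 5 rose, 1 fell and 2, SLC39A1 and SLC39A4, did not pass (median 0.33 log2). The shares of all genes tested were 34.7% higher and 35.4% lower. SLC39A13 and SLC39A7, which encode ZIP13 and ZIP7 and release zinc from compartments of the secretory pathway, rose by 1.02 ± 0.08 and 0.66 ± 0.06 log2, and SLC39A9 and SLC39A11 by 0.74 ± 0.05 and 0.40 ± 0.07 log2 (edgeR adjusted p of 9.56e-06 or lower). SLC39A3 rose by 0.27 ± 0.10 log2 (adjusted p = 0.0148), a call lost with library totals (adjusted p = 0.125) and without Japoflavone B replicate 2 (adjusted p = 0.107). The gene that fell was SLC39A8, which encodes ZIP8, the closest relative of ZIP14: it had 2.85, 3.16 and 3.04 FPKM after DMSO and 1.49, 1.54 and 1.53 after Japoflavone B (-0.89 ± 0.10 log2; adjusted p = 4.04e-09). SLC39A8 and SLC39A14 therefore moved in opposite directions, from 3.02 and 19.5 FPKM to 1.52 and 59.5 FPKM in the means.

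**Figure D3:**
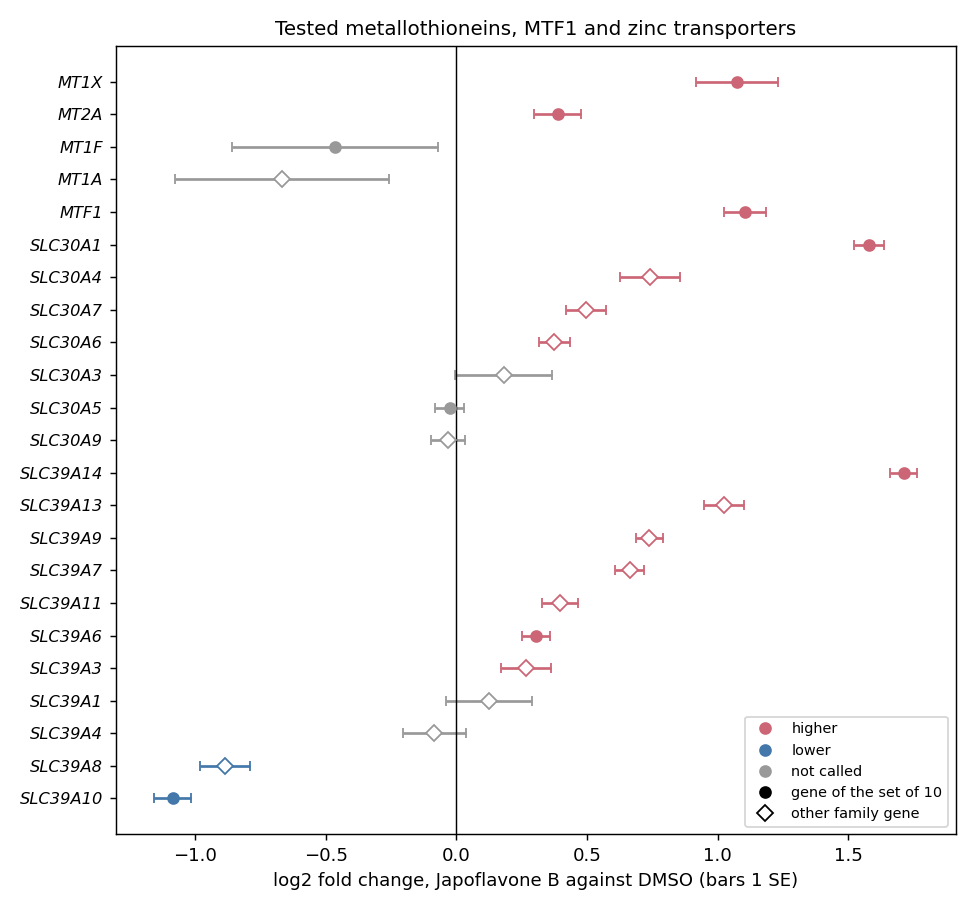
Log2 fold change (Japoflavone B against DMSO, bars 1 SE) of the tested metallothionein genes, MTF1 and the tested SLC30 and SLC39 genes; filled circles are genes of the set of 10, open diamonds other genes of the families, and colour gives the call. SLC39A14 and SLC30A1 stand highest at 1.71 and 1.58, and SLC39A10 and SLC39A8 are the transporters called lower.

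These changes altered the make-up of both transporter families. The summed FPKM of the 14 SLC39 genes was 142 ± 2.91 in the DMSO libraries and 209 ± 3.27 in the treated ones (SD, n = 3), and the share of SLC39A14 in it went from 13.7% ± 0.31 to 28.4% ± 0.354, while that of SLC39A10 went from 10.2% ± 0.994 to 3.05% ± 0.198 and that of SLC39A6 from 23.8% ± 0.487 to 18.6% ± 0.528. By the deposited exonic sizes SLC39A6 was thus the importer gene with most mRNA per length after DMSO and SLC39A14 after Japoflavone B. The summed FPKM of the 10 SLC30 genes was 63.0 ± 1.32 and 84.6 ± 3.09 (SD, n = 3), in which SLC30A1 went from 16.5% ± 0.58 to 34.4% ± 0.906 and SLC30A5 from 30.2% ± 0.0425 to 20.6% ± 0.683. None of these ranges overlapped between the groups.

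**Figure D4:**
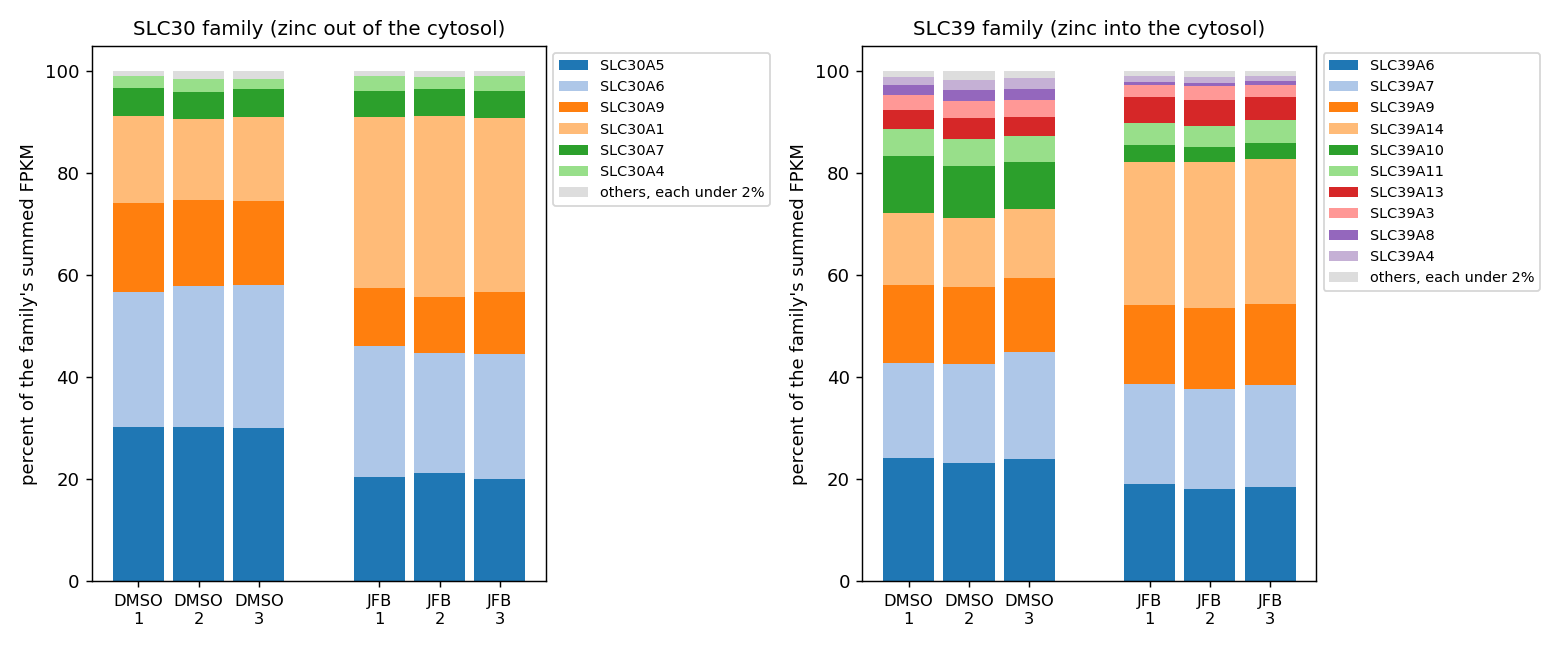
Share of each gene in the summed FPKM of the SLC30 family (left) and the SLC39 family (right), in percent, for each library (JFB, Japoflavone B); genes under 2% in every library are pooled. The share of SLC30A1 and that of SLC39A14 are about 2 times as large in the treated libraries, and that of SLC39A10 is smaller in all 3.

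Ordered by FPKM after DMSO, MT2A was followed by SLC39A6, SLC39A14, SLC30A5, SLC39A10, SLC30A1, MTF1, MT1X, MT1F and MT1E. After Japoflavone B the order was SLC39A14, MT2A, SLC39A6, SLC30A1, SLC30A5, SLC39A10, MTF1, MT1X, MT1F and MT1E. Neighbours whose libraries overlapped on the deposited FPKM scale were SLC39A14 and SLC30A5 after DMSO (18.97 to 20.44 and 18.77 to 19.53 FPKM), SLC39A14 and MT2A after Japoflavone B (57.62 to 60.61 and 56.53 to 58.39), and MTF1 and MT1X in both groups. Per length of the longest coding transcript none of these pairs overlapped: SLC39A14 had 28.2 to 30.4 and SLC30A5 23.4 to 24.4 FPKM after DMSO, SLC39A14 had 85.8 to 90.2 and MT2A 65.7 to 67.9 FPKM after Japoflavone B, and MT1X stood above MTF1 in both groups. On that scale MT1X also stood above SLC39A10 after Japoflavone B, with means of 16.5 and 8.14 FPKM. The order of these genes therefore depends on the length used.

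Other genes related to zinc moved in both directions. Of a list of 10 symbols of zinc regulators, sensors and MTF1 targets, 9 matched a gene and 8 were tested. Of these 5 rose and 3 fell (median 0.27 log2). All genes tested also moved both ways, 34.7% higher and 35.4% lower. Those of the list that rose were 3 with limma on log2(FPKM + 0.1) and 2 on log2(TPM + 1). PGF, the gene of placental growth factor and a known MTF1 target, went from 0.06, 0.09 and 0.11 FPKM to 0.74, 1.11 and 0.91 FPKM (3.53 ± 0.30 log2; edgeR adjusted p = 2.87e-11), with 28 counts in the DMSO libraries together and 283 in the treated ones. ZNF658, which encodes a zinc-sensitive repressor of transcription, rose by 0.72 ± 0.13 log2. GCLC, which makes glutathione and is also a known MTF1 target, fell by 0.66 ± 0.05 on the log2 scale, and GPR39, a cell surface receptor for zinc, fell from 2.93 ± 0.371 to 0.967 ± 0.201 FPKM (SD, n = 3; -1.51 ± 0.18 log2, edgeR adjusted p = 1.52e-08). Of the genes named above as MTF1 targets, MT2A, MT1X, SLC30A1 and PGF rose and GCLC fell. The metallothionein genes MT1F and MT1A did not pass in edgeR, and SLC39A10, which MTF1 is known to repress, fell. These genes did not all move in one direction, and they are not a full list of MTF1 targets.

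**Figure D5:**
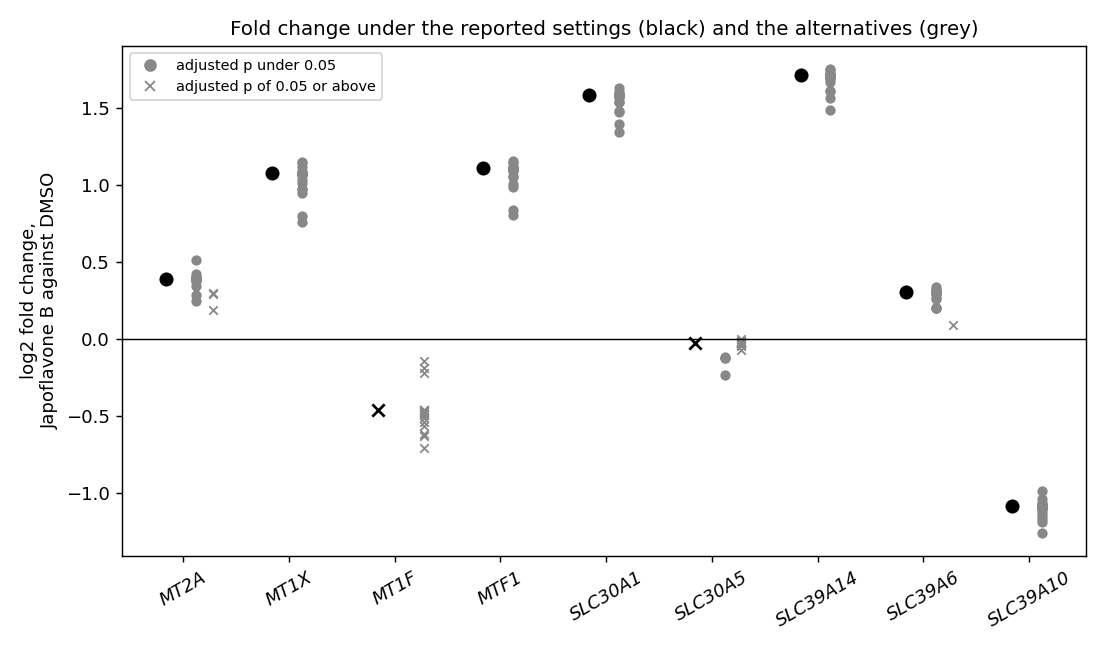
Log2 fold change of the 9 tested genes under the reported settings (black) and under the alternatives in which each was tested (grey); circles have an adjusted p under 0.05 and crosses do not. SLC39A14, SLC30A1, MTF1, MT1X and SLC39A10 keep their call in every alternative shown, MT1F is called in none, and MT2A, SLC39A6 and SLC30A5 change theirs in some.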

How the data were processed

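Poly(A) RNA of 6 A549 libraries was selected with oligo(dT) beads, randomly primed and sequenced, per the labels. The deposited table holds raw counts per gene and library, made by the authors; GRCh38, HISAT2 2.0.1, cutadapt 1.9.1, DESeq2 and HTSeq 0.6.1 are named in the submitters' processing notes, and the annotation release and strand setting are not given in the sources used here. The deposited FPKM, in the authors' columns, are those counts divided by exonic gene size and column total, recomputed here to within 0.005. Exonic gene sizes are other deposited values, in bases, per the file headers.

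Genes were filtered with filterByExpr (minimum count 10, minimum total 15), scaled by trimmed mean of M-values and tested for the group term by quasi-likelihood in edgeR 4.0.16 under R 4.3.3; p-values were adjusted over all 16082 genes (Benjamini-Hochberg, threshold 0.05). SE is the log2 fold change divided by the root of the F statistic. The workflow was tested on simulated data. The members, the gene lists and the alternatives were chosen with earlier results of these data known. Named genes are the 10 members, every metallothionein with a count, and from each other list the 4 tested genes with the lowest adjusted p and the first in the opposite direction; the remaining SLC30 and SLC39 genes, TMEM163, MT1B, MT1G, MT1H, MT1M and MT4 were named after their values were seen. Alternatives were other scalings, filters and pseudocounts, limma 3.58.1, DESeq2 1.42.0, a replicate block and each library left out. Depth was 15298531 to 21744407 counts per library; limits for a count of 0 cover counting error only. Promoters and transcripts came from RefSeq (GRCh38.p14) and GENCODE 29 (GRCh38). The result of 1 epithelial marker is not reported here.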

Additional observations from a re-analysis of the deposited data

How the results depend on the processing

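Of the 9 genes of the set that were tested, 6 kept their direction and call in every alternative in which they were tested. With limma on log2(FPKM + 0.1), log2(FPKM + 1) and log2(TPM + 1), MT2A stood at 0.30, 0.29 and 0.18 log2 and no longer passed, and SLC30A5 was called lower at -0.13, -0.12 and -0.24 log2, as it was with library totals alone (-0.13 log2). In these 4 settings 2 genes of the set were called lower in place of 1, and 6 (library totals), 5, 5 and 4 were called higher in place of 6. SLC39A6 no longer passed on log2(TPM + 1), at 0.088 log2. Library totals alone and the limma fits leave out the trimmed-mean factors. MT2A kept its call with library totals alone, at 0.285 log2 (edgeR adjusted p = 0.0092). With library totals alone the median gene moved by -0.10 log2, and on log2(TPM + 1) by -0.21. The share of calls that were higher was then 42.4% and 35%, against 49.5% under the reported settings. SLC30A3 and SLC39A1, called in none, turned to -0.019 and -0.057 log2 on log2(TPM + 1). With 1 library left out, SLC30A9 ran from -0.092 to 0.024 log2 (0.015 without DMSO replicate 1 and 0.024 without Japoflavone B replicate 2) and SLC39A4 from -0.18 to 0.028 log2 (0.028 without DMSO replicate 3), neither called. MT2A ran from 0.24 to 0.51 log2 when each library was left out in turn and kept its call. Of 30 other genes of the lists with alternatives run, 24 kept direction and call in all.

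The replicate block left 6 genes of the set called higher and 1 lower, and 5502 and 5618 of all genes against 5577 and 5686. Same-numbered libraries did not deviate together (correlations across genes of 0.013, -0.0042 and -0.045), and no DMSO library correlated best with the treated library of its own number. All of these correlations were small, so they cannot show whether same-numbered libraries were set up together. A metal response element core was found in 17.1% of promoters within 150 bases of the start, against 24.8% within 250. MT1E and MT1F have too few counts for small changes to be detectable at this depth. A filter on a mean of at least 2 FPKM removed MT1F and other genes under that level, which have no value there.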

Other observations

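Genes that handle copper, another metal that metallothioneins bind, moved in both directions. Of 12 tested, 5 were higher, 3 lower and 4 did not pass (median 0.19 log2). Of all genes tested, 34.7% were higher and 35.4% lower. On log2(TPM + 1) the counts of the 12 moved to 1 higher and 5 lower. SLC31A1, the gene of the copper importer CTR1, rose from 14.1 ± 0.701 to 21.6 ± 0.724 FPKM (SD, n = 3; 0.71 ± 0.06 log2, edgeR adjusted p = 2.13e-11). ATP7A, the gene of a copper-exporting ATPase, fell by 0.48 ± 0.08 on the log2 scale, COMMD1, which takes part in copper export, by 1.39 ± 0.14, and COX11, which delivers copper to cytochrome c oxidase, by 0.41 ± 0.06.

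Other genes that respond to metals or to hormones that also induce metallothioneins were mixed. So were all genes tested, of which 34.7% rose and 35.4% fell. Of 8 genes known to respond to cadmium and electrophiles 3 rose and 5 fell (median -0.38 log2); with library totals alone 1 rose. HMOX1, the haem oxygenase gene, rose by 1.00 ± 0.06 log2, whereas the near-identical heat shock genes HSPA1A and HSPA1B fell by 3.43 ± 0.08 and 3.04 ± 0.09 on the log2 scale and the co-chaperone gene DNAJB1 by 0.78 ± 0.06. Of 7 tested glucocorticoid-responsive genes 3 rose and 3 fell: TSC22D3, DUSP1 and PER1 were higher by 3.73 ± 0.08, 2.85 ± 0.05 and 1.36 ± 0.07 log2, and FKBP5, a chaperone of the receptor, was lower (-2.02 ± 0.08 log2).

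TMEM163, which encodes a zinc-binding membrane protein, had 0 counts in each DMSO library and 16, 7 and 13 counts in the Japoflavone B libraries. It did not pass the filter on low counts, so no fold change is given.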
